A study of Mus musculus with 6 samples.

Results

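The genes described here encode the nuclear subunits of respiratory complexes II to V and cytochrome c, with some of the factors that assemble them. They were chosen by symbol alone, as all genes named Sdha to Sdhd, Uqcr, Cyc1, Cycs, Cox followed by a digit, or Atp5. The rule took 57 of the 22040 genes listed, of which 4 encode complex II subunits, 9 complex III, 17 complex IV and 15 complex V. A further 9 are assembly factors of complex IV. Cytochrome c (Cycs), the supercomplex factor Cox7a2l and Atp5s, listed as a factor of complex I assembly despite its name, stand alone.

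RNA-seq was carried out on renal cortex taken from wild-type mice (WT in all 6 sample titles) of the laboratory strain C57BL/6. Of the 6 libraries, 3 came from sham-operated mice and 3 (IR24h) from mice killed 24 h after a 30 min clamp on the vessel stalks of both kidneys, a model of acute kidney injury by ischaemia and reperfusion. The labels give neither age nor sex and do not say that every library is a different mouse, so p-values measure the spread between libraries, which may be technical. Values of 3 libraries are given below in the order of libraries 1, 2 and 3 of their group.

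The respiratory chain lies in the inner mitochondrial membrane. Complex II (succinate dehydrogenase, also an enzyme of the citric acid cycle) passes electrons to ubiquinone, complex III (the cytochrome bc1 complex) passes them to cytochrome c, and complex IV (cytochrome c oxidase) to oxygen, while complex V (ATP synthase) uses the resulting proton gradient to make ATP. Complex II is encoded in the nucleus alone, whereas complexes III, IV and V also hold subunits encoded in mitochondrial DNA. The proximal tubule, the main cell type of the renal cortex by mass, depends on this pathway for the energy of salt and solute transport.

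Totals were 14339985 to 17061844 counts in sham libraries and 12877237 to 15998975 in IR24h libraries. Genes of the mitochondrial genome took 13.1 to 14.2% of counts in sham libraries and 68.9, 26.2 and 49.2% in IR24h libraries. The members took 1.78 to 2.05% of the counts of nuclear genes in sham libraries and 1.56, 1.05 and 1.89% in IR24h libraries. A sum of 12 proximal tubule markers (among them Lrp2, Slc34a1 and Slc5a2, all above 0 in every library) was 24306 to 29556 CPM (counts relative to the scaled library size) in sham libraries and 13187, 10211 and 16162 CPM in IR24h libraries. Kap, a single abundant marker with a log2 fold change of -0.10, made up 10826, 5080 and 13814 CPM of the injured sums. Without it, a choice made after seeing the data, the other 11 markers summed to 15497 to 17006 CPM in sham libraries and to 2361, 5131 and 2348 CPM in IR24h libraries, and 7 of the 11 were called lower. Pck1, kept among the 11, was not called (log2 fold change -0.28). It made up a large part of the injured sums, at 1185, 2125 and 467 CPM, against 1367 to 1836 CPM in sham libraries. Summed injury markers (Havcr1, Lcn2, Krt20 and Isg20) were at 3.32 to 4.74 CPM in sham libraries and at 1059, 2968 and 1562 CPM in IR24h libraries, so that no library went against its label. IR24h 2 stood apart: its 7 fat markers summed to 150 CPM, against 13.5 to 23.5 CPM in sham libraries and 76.7 and 83.8 CPM in the other injured libraries, and its 7 muscle markers to 19.6 CPM, against at most 3.27 CPM elsewhere. All 7 fat and all 7 muscle markers had counts in IR24h 2, while in each other library 4 to 5 of the fat and 4 to 6 of the muscle markers were at 0. Among the other tubule segments rich in mitochondria, 3 distal convoluted tubule markers summed to 1219 to 1479 CPM in sham libraries and 140, 754 and 137 CPM in IR24h libraries, and 5 thick ascending limb markers to 3090 to 3881 and 3310, 1596 and 5044 CPM. The members of the latter sum went apart: Egf fell (log2 fold change -3.71, adjusted p = 0.0021), while Umod (0.61) and Slc12a1 (0.85) were not called. In cortex pieces, fewer cells of a type and less RNA per cell cannot be told apart, and the part of these marker shifts in the results below was not tested.

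Of the 57 members, 53 had enough counts to be tested between IR24h and sham. In edgeR's quasi-likelihood test, 10 were lower and 1 was higher in IR24h at a Benjamini-Hochberg adjusted p under 0.05, and 42 were not called. Over all 13609 genes tested, 7.62% were called lower, 8.65% higher and 16.3% either way. The median log2 fold change of the members was -0.09, against 0.05 for all genes tested. Values of all 3 IR24h libraries lay below all 3 sham values for 20 members and above them for 2, where 21.7% and 19.9% of all genes did so. The 10 members that fell were Uqcrfs1, Cox5a, Atp5a1, Atp5g3, Atp5b, Cox15, Sdhd, Atp5f1, Uqcrc2 and Sdhc, and Cox7c rose.

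The complexes differed in their medians, a description for which no test was made. Complex II had the lowest median log2 fold change, -1.20, with 2 of 4 subunits called lower. Complex III followed at -0.53 with 2 of 9 called lower, and complex V at -0.09 with 4 of 15 called lower. Complex IV had the highest median, 0.53, with 1 of 13 tested subunits called lower and 1 higher. Within complexes III, IV and V, genes of one enzyme had fold changes of both signs: complex III spanned -2.30 to 1.06, complex IV -2.02 to 1.99 and complex V -1.51 to 1.39. Complex II spanned only -1.42 to -1.05.

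**Figure D1:**
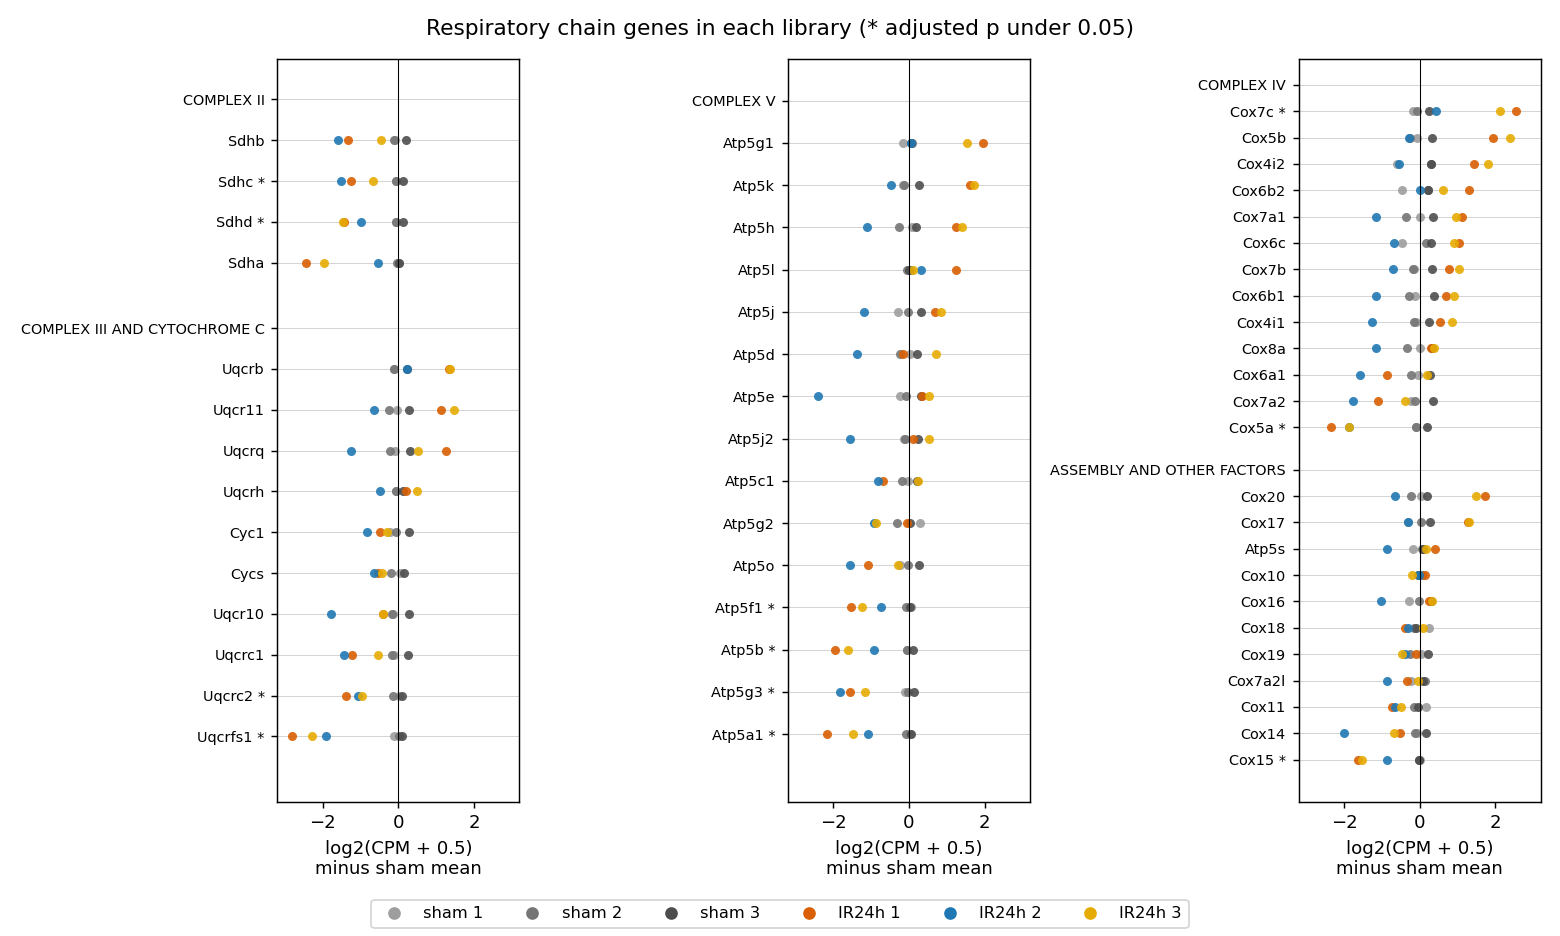
Each row is a tested gene and each point a library, as log2(CPM + 0.5) minus the mean of the 3 sham libraries (grey). The 4 complex II genes lie left of the sham values in all 3 IR24h libraries, while many complex IV and V genes lie right of them in IR24h 1 and 3 and left in IR24h 2.

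The plot of the members by library shows that the injured libraries did not move together. IR24h 2 is therefore set apart in what follows, a choice made after seeing the data. Calls made without it or in it alone describe this split and are no further test of it. Without it, 17 members were called higher and 14 lower of 54 tested, where 23.9% and 24.5% of all genes were. With it as the only injured library, whose spread was then assumed to equal that of the sham libraries, 0 were called higher and 34 lower, where 18.8% and 19.2% of all genes were. Of the 54, 28 had a fold change below 0 in both fits, 4 above 0 in both, and 22 were above 0 without IR24h 2 and below 0 in IR24h 2. None was the other way round. In these 22, which include Cox4i1, Cox6b1, Atp5h and Uqcrq, the fold change over all 3 libraries thus averages opposite values.

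Sequences before the transcription start of 6 of the 11 called genes show which known promoter elements of respiratory genes they hold. They are read from RefSeq on GRCm38.p6, 5′ to 3′ on the strand of the gene, as the 250 bases before the RefSeq start, and cut where GENCODE places the gene's start further upstream. Capitals mark matches, on either strand, to 6 searched motifs: NRF1 GCGCANGCG, ETS (the GABPA element) CCGGAAG, YY1 AAGATGGC, CCAAT, CRE TGACGTCA and ERR TCAAGGTCA.
Uqcrfs1 chr13:30545363-30545566 (- strand): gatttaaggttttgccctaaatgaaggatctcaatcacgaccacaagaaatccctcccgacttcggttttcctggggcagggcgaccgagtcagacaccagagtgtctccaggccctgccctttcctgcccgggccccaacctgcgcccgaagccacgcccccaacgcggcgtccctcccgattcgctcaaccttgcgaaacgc
Cox5a chr9:57520982-57521231 (+ strand): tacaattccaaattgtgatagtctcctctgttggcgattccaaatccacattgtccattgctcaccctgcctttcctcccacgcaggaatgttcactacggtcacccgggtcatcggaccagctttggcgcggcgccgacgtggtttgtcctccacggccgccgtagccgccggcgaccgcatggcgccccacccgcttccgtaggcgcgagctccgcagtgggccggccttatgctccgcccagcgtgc
Sdhd chr9:50603850-50604099 (- strand): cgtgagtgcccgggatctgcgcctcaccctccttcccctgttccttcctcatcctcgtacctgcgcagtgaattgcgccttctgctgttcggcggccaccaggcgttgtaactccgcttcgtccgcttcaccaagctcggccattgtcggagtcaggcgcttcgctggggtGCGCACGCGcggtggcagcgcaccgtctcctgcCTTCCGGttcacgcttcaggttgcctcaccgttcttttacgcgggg
Atp5b chr10:128083057-128083272 (+ strand): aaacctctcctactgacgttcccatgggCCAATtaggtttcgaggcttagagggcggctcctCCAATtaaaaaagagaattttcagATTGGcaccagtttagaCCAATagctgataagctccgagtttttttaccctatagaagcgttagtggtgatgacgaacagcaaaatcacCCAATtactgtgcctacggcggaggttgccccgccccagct
Atp5g3 chr2:73911327-73911576 (- strand): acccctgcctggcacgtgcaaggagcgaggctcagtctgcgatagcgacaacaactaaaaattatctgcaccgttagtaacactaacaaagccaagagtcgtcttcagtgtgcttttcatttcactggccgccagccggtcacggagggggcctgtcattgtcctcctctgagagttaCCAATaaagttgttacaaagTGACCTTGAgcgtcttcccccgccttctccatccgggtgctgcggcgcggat
Cox7c chr13:86046905-86047045 (- strand): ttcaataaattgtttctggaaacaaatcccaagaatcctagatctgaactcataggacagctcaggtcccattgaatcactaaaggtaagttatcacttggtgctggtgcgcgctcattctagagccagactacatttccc
Sdhd, the small membrane anchor of complex II, held an NRF1 match starting 79 bases and an ETS match 46 bases before its start. Atp5b, the catalytic subunit of ATP synthase, held 5 CCAAT matches, from 222 to 75 bases before the start. Atp5g3, which encodes the c subunit of the ATP synthase ring, held a CCAAT match and the only ERR match among the members with a promoter, 52 bases before its start. Cox5a and Cox7c, which moved in opposite directions, held none of the 6. Atp5f1 and Cox15, called lower and not printed, also held none. The 1 match of Uqcrfs1, a CRE 29 bases before the RefSeq start, lies in the stretch that GENCODE counts as transcribed and is not printed.

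RefSeq promoters were matched for 44 members, 2 of them by an older symbol. An NRF1 match was present in 9 of the 44 (20.5%), against 11.9% of the promoters of all genes tested and 5.86% of all 27025 promoters. An ETS match was present in 12 (27.3%, against 14.9% and 7.83%) and a CCAAT match in 23 (52.3%, against 40.2% and 37.5%). YY1 and CRE matches were each in 2 of the 44 (4.55%), against 2.25% and 2.94% of the promoters of all genes tested. The ERR match was in 1 (2.27%, against 0.31%). Of the 7 called lower that had a promoter, 1 held an NRF1, 1 an ETS, 2 a CCAAT, 1 a CRE and 1 an ERR match. None of the motifs contains another, but matches can overlap where a motif reads alike on both strands. A match describes letters and is not evidence of a bound factor, and a window without one says nothing of the factor.

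All 4 complex II genes had lower levels in every injured library than in every sham library, though only 2 passed the test. Sdha, the flavoprotein that oxidises succinate, stood at 720, 688 and 711 CPM in sham and at 128, 482 and 182 CPM in IR24h. Its IR24h values were all below sham, and IR24h 2 was far closer to sham than the others. The log2 fold change was -1.42 (SE 0.50) and not called (adjusted p = 0.0893), but without IR24h 2 it was -2.19 and called. Sdhb, the iron-sulfur subunit and the most abundant of the 4 per kb of transcript (338 CPM per kb in sham), stood at 362, 358 and 439 CPM in sham and 154, 126 and 281 CPM in IR24h. The groups did not overlap, and IR24h 3 was highest of the injured libraries. The log2 fold change of Sdhb was -1.05 (SE 0.35) and not called (adjusted p = 0.0816).

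Both membrane anchors, which hold the heme and the ubiquinone site, passed the test. Sdhc stood at 315, 312 and 352 CPM in sham and 136, 113 and 206 CPM in IR24h, a log2 fold change of -1.10 (SE 0.30, adjusted p = 0.0441). Sdhd stood at 242, 241 and 273 CPM in sham and 91.8, 127 and 91.2 CPM in IR24h, a log2 fold change of -1.29 (SE 0.25, adjusted p = 0.0169). Here the injured libraries lay close together, with IR24h 2 the highest for Sdhd and the lowest for Sdhc. All 4 genes were called lower both without IR24h 2 and with it alone. The 12 proximal tubule markers given above also summed to less in all 3 injured libraries, with or without Kap. The fall of that sum was largest in IR24h 2 with Kap and smallest there without it. The part of tubule cell content in the fall of the complex II genes was not tested.

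Complex III had 2 subunits called lower, the Rieske protein and a core protein, and none of its small accessory subunits was called. Uqcrfs1, the Rieske iron-sulfur protein, had the lowest fold change of all members. It stood at 397, 432 and 464 CPM in sham and at 60.4, 114 and 88.6 CPM in IR24h. The groups were widely apart, and even IR24h 2, the highest injured library, lay under every sham library by a wide margin. The log2 fold change was -2.30 (SE 0.31, adjusted p = 0.00488).

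The core proteins Uqcrc1 and Uqcrc2 form the matrix side of the complex. Uqcrc2 stood at 390, 350 and 412 CPM in sham and 145, 184 and 198 CPM in IR24h, with a log2 fold change of -1.13 (SE 0.25, adjusted p = 0.0247). The exons of Uqcrc2 overlap those of Pdzd9 on the other strand over 19.7% of their length, and since the strand of the libraries is not given, reads of both cannot be told apart there. Uqcrc1 stood at 493, 478 and 638 CPM in sham and 226, 198 and 363 CPM in IR24h, without overlap, but did not pass the test (log2 fold change -1.03, SE 0.32, adjusted p = 0.0668). Cyc1, cytochrome c1, stood at 248, 274 and 348 CPM in sham and 206, 163 and 234 CPM in IR24h, a log2 fold change of -0.53 (SE 0.27, adjusted p = 0.211). Its injured values lay just below the sham range, and the gene length implied by its count and FPKM was 5.08 kb in sham and 1.19 kb in IR24h, so injury and a difference in counting cannot be told apart for Cyc1.

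Among the small accessory subunits of complex III, Uqcr10 was the most abundant per kb (478 CPM per kb in sham). It stood at 188, 184 and 250 CPM in sham and 154, 59.4 and 156 CPM in IR24h, with IR24h 2 the lowest by far (log2 fold change -0.75, SE 0.40, adjusted p = 0.223). The other 4, Uqcrb, Uqcrh, Uqcrq and Uqcr11, had fold changes from 0.12 to 1.06 and none was called. Uqcrb, Uqcrq and Uqcr11 were called higher when IR24h 2 was left out, with log2 fold changes of 1.35, 0.92 and 1.29. Uqcrq was called lower (-1.27) in IR24h 2 alone.

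Cytochrome c, the carrier between complexes III and IV and a trigger of apoptosis when released, stood at 132, 111 and 141 CPM in sham and 88.4, 81.4 and 95.1 CPM in IR24h. The 3 injured values of Cycs lay close together and below all sham values, yet the log2 fold change of -0.54 (SE 0.23) was not called (adjusted p = 0.149). Of the 50-base stretches in its transcripts, 26.1% occur in other genes, so reads may be shared with its copies.

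Complex IV held called members in both directions. Cox5a, a matrix-side structural subunit, stood at 198, 197 and 241 CPM in sham and 41.5, 57.6 and 57.6 CPM in IR24h. All 3 injured libraries lay far below sham and close to each other, with a log2 fold change of -2.02 (SE 0.26, adjusted p = 0.00428). Cox7c, a small membrane subunit, stood at 8.62, 9.38 and 11.7 CPM in sham and 60.2, 13.5 and 44.7 CPM in IR24h. Its rise lay mostly in IR24h 1 and 3, with IR24h 2 only just above sham, which gave a log2 fold change of 1.99 (SE 0.52, adjusted p = 0.0399). Cox7c was low in sham beside its partners at 18.3 CPM per kb, and 22.1% of its 50-base stretches also occur elsewhere, mainly in the pseudogene Gm10012.

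The other subunits of complex IV were not called over all 3 injured libraries. Cox4i1, the common form of a subunit needed early in assembly, stood at 381, 366 and 484 CPM in sham and 596, 168 and 743 CPM in IR24h. IR24h 1 and 3 lay above every sham library and IR24h 2 below every one, so the log2 fold change of 0.29 (SE 0.51, adjusted p = 0.717) describes neither. Cox6c stood at 91.1, 140 and 154 CPM in sham and 257, 78.8 and 236 CPM in IR24h, and Cox6b1, which faces the intermembrane space, at 235, 210 and 330 against 413, 114 and 475 CPM. Both showed the same split. Cox5b, which binds zinc, stood at 85.6, 75.1 and 114 CPM in sham and 348, 74.1 and 477 CPM in IR24h, a log2 fold change of 1.71 (SE 0.61, adjusted p = 0.0951). Here IR24h 1 and 3 lay far above sham and IR24h 2 just below it, and without IR24h 2 it was called higher (2.16), though its implied length was 2.76 kb in sham and 2.52 kb in IR24h. Cox7b had a log2 fold change of 0.53 (adjusted p = 0.441) and was called higher without IR24h 2 (0.90). Cox8a stood at 361, 282 and 448 CPM in sham and 442, 161 and 462 CPM in IR24h, with a log2 fold change of -0.03 (SE 0.43), but its implied length was 1.05 kb in sham and 0.545 kb in IR24h.

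Cox6a1, the most abundant complex IV subunit per kb (961 CPM per kb in sham), stood at 526, 464 and 656 CPM in sham and 300, 181 and 623 CPM in IR24h. Here IR24h 3 lay within the sham range and the others below it (log2 fold change -0.58, SE 0.46, adjusted p = 0.41). Cox7a2 stood at 191, 205 and 286 CPM in sham and 105, 66.2 and 170 CPM in IR24h, all below sham, with group means of 227 and 114 CPM, but not called (adjusted p = 0.116). Without IR24h 2, 8 of 14 complex IV subunits were called higher and Cox5a lower, where 23.9% of all genes were called higher and 24.5% lower. In IR24h 2 alone, a fit on 1 injured library, the median log2 fold change of the 14 was -1.17.

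Forms of complex IV subunits known from muscle, brown fat or testis were scarce. Cox6a2, the heart and muscle form, had 10 to 38 counts in sham and 3, 10 and 7 in IR24h and was not tested. Cox8b, the muscle and brown fat form, had 0 counts except for 3 in IR24h 2. The testis forms Cox8c and Cox7b2 had 0 counts in all 6 libraries, which allows up to 3 counts in each. Cox7a1, the muscle form, stood at 3.71, 2.79 and 4.91 CPM in sham and 8.66, 1.38 and 7.69 CPM in IR24h. IR24h 2, where muscle markers were highest, thus had the lowest Cox7a1. Cox4i2, the oxygen-responsive form found in pericytes, stood at 0.171, 0.769 and 0.755 CPM in sham and 2.27, 0.204 and 3.06 CPM in IR24h, and 5 smooth muscle and pericyte markers summed to 91.1 to 101 CPM in sham and 317, 138 and 335 CPM in IR24h. Cox6b2, the testis form, stood at 2.34, 4.09 and 4.10 CPM in sham and 9.23, 3.48 and 5.51 CPM in IR24h, and the groups overlapped. None of Cox7a1, Cox4i2 and Cox6b2 was called over all 3 libraries.

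**Figure D2:**
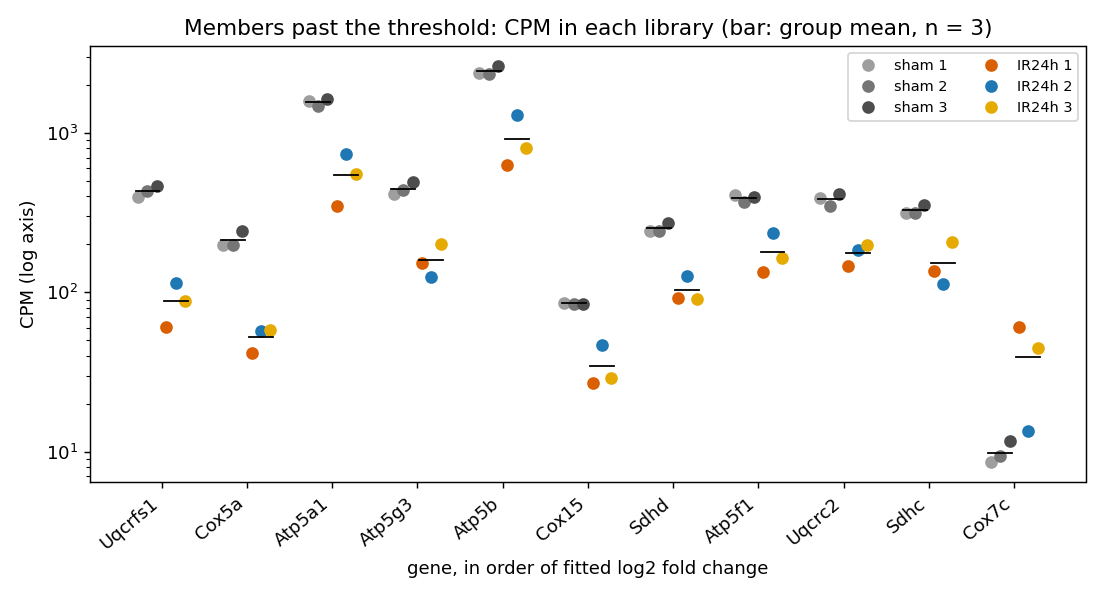
CPM of the 11 called members in each library on a log axis, with bars for the group means of 3 libraries, ordered by fitted log2 fold change. The 10 genes on the left have all 3 injured libraries below all sham libraries, and Cox7c on the right has IR24h 2 at 13.5 CPM, close to the sham values of 8.62 to 11.7 CPM.

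Complex V had 4 subunits called lower, from the head, the side stalk and the membrane ring, and none called higher. Atp5b, the beta subunit that makes ATP and the most abundant nuclear subunit of complex V per kb (1277 CPM per kb in sham), stood at 2364, 2339 and 2636 CPM in sham and 630, 1298 and 803 CPM in IR24h. The alpha subunit gene Atp5a1 stood at 1575, 1470 and 1623 CPM in sham and 347, 737 and 553 CPM in IR24h. In both genes IR24h 2 kept the highest injured level and IR24h 1 the lowest, with no overlap between groups. Their log2 fold changes were -1.43 (SE 0.36, adjusted p = 0.0357) and -1.51 (SE 0.35, adjusted p = 0.0269). The other head subunits, Atp5c1, Atp5d and Atp5e (gamma, delta and epsilon), had fold changes of -0.35, -0.05 and -0.07 and overlapped sham. In IR24h 2 alone all 3 were called lower, Atp5e by the widest margin of any member (log2 fold change -2.45).

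Of the stalk and membrane subunits, Atp5f1 (subunit b of the side stalk) stood at 409, 370 and 396 CPM in sham and 134, 236 and 164 CPM in IR24h, a log2 fold change of -1.14 (SE 0.29, adjusted p = 0.0372). Its groups were clearly apart, although 14.3% of its 50-base stretches occur in other genes. Atp5o, the stalk cap that confers sensitivity to oligomycin, was below sham in all 3 injured libraries but not called (-0.90, SE 0.37, adjusted p = 0.129). Atp5h, Atp5j and Atp5k were not called over 3 libraries and were called higher without IR24h 2 (1.31, 0.74 and 1.67). Atp5l was above sham in all 3 injured libraries, at 25.6, 13.1 and 11.3 CPM against 9.95 to 10.8 CPM, but not called (log2 fold change 0.67, adjusted p = 0.228). Atp5j2, subunit f of the membrane part, overlapped sham over 3 libraries (log2 fold change -0.09, SE 0.49) and was called lower in IR24h 2 alone (-1.58).

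Proton flow turns a ring of c subunits, which 3 genes encode as the same mature protein. Atp5g3 stood at 414, 437 and 491 CPM in sham and 152, 125 and 200 CPM in IR24h, a log2 fold change of -1.49 (SE 0.28, adjusted p = 0.0141). Atp5g1 stood at 29.3, 34.5 and 33.8 CPM in sham and 128, 34 and 95.3 CPM in IR24h. It was far above sham in IR24h 1 and 3 and at the sham level in IR24h 2, and the log2 fold change of 1.39 (SE 0.46) was not called (adjusted p = 0.0762). Atp5g2 stood at 3.94, 2.4 and 3.24 CPM in sham and 2.98, 1.43 and 1.49 CPM in IR24h, with overlap (-0.73, SE 0.44, adjusted p = 0.283).

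Ratios of isoforms were compared within libraries, where the scaling between libraries cancels. The log2 ratio of Atp5g1 to Atp5g3 counts (0.5 added to each) was -3.82, -3.66 and -3.86 in sham and -0.25, -1.88 and -1.07 in IR24h. All 3 injured libraries, IR24h 2 included, lay above sham, by 2.72 on average. The ratio of Cox7a1 to Cox7a2 was -5.68, -6.18 and -5.86 in sham and -3.59, -5.56 and -4.46 in IR24h, again without overlap and higher by 1.37, though IR24h 2 lay close to sham. With 3 libraries against 3, a 2-sided exact permutation test cannot go below p = 0.1, the value of both, and over the 6 ratios tested the adjusted p was 0.30. The other 4 ratios (Cox4i2 to Cox4i1, Cox6a2 to Cox6a1, Cox6b2 to Cox6b1 and Atp5g2 to Atp5g3) overlapped between the groups. The counts were not divided by length, so these ratios show differences between libraries and not relative abundance, and 11.1% of the 50-base stretches of Atp5g1 occur in other genes.

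**Figure D3:**
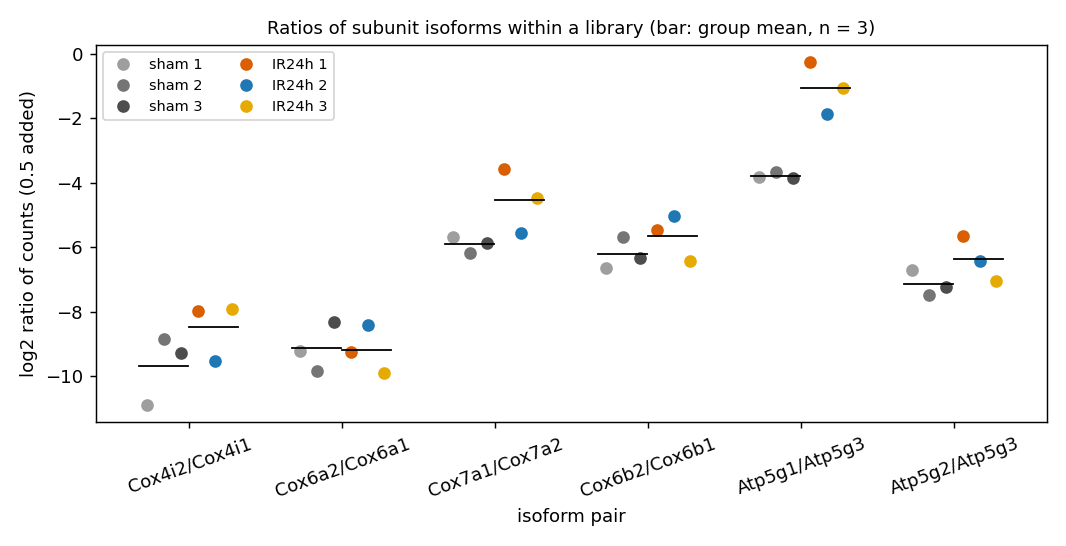
Log2 ratio of the counts of isoform pairs (0.5 added) in each library, with bars for group means of 3 libraries. For Atp5g1 to Atp5g3 the 3 IR24h libraries (-1.88 to -0.25) lie above the sham libraries (-3.86 to -3.66).

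Assembly factors of complex IV made up 9 members. Cox15, which makes heme A, stood at 86.2, 84.7 and 84.3 CPM in sham and 27.1, 46.5 and 29.2 CPM in IR24h, a log2 fold change of -1.31 (SE 0.28, adjusted p = 0.022). Sham values were nearly equal, and all injured values were far below. Cox10, which catalyses the step before, differed little (21.7, 23 and 21.1 CPM in sham and 24.1, 21.6 and 19.1 CPM in IR24h, log2 fold change -0.02, SE 0.23). The copper chaperones Cox17, Cox19 and Cox11 had fold changes of 0.93, -0.33 and -0.66, none called, and Cox14, Cox16 and Cox18 had -0.94, -0.06 and -0.20, none called over all 3 libraries. Cox17 and Cox20 were called higher and Cox14 lower without IR24h 2, and over 84.8% of its stretches Cox20 shares sequence, mainly with Hnrnpu on the other strand. Neither Cox7a2l, which joins complexes III and IV and is known to be shortened in C57BL/6 mice (log2 fold change -0.39), nor Atp5s (-0.02) was called.

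Across the members, direction went with the length of the coding sequence in IR24h 1 and 3, a pattern seen in the values and described without a test. Over the 53 tested members, Spearman's rho between coding length and the difference from the sham mean was -0.58 in IR24h 1, 0.00 in IR24h 2 and -0.54 in IR24h 3. Over 13538 nuclear coding genes it was -0.03, 0.22 and -0.16. Points share their library, and rho was weaker against transcript length (-0.42, 0.11 and -0.44 over the members). Split at 450 bases, a value chosen after seeing the data, the 31 shorter members had median differences of 0.70, -0.86 and 0.52 in IR24h 1, 2 and 3, and the 22 longer ones -1.16, -0.95 and -0.47. All coding genes under 450 bases, 955 of them, had medians of 0.30, -0.38 and 0.51, the same signs as those of the shorter members. Among the longer members 8 (36.4%) were called lower, against 7.70% of all longer genes, and 0 higher, against 8.48%. Among the shorter members 2 (6.45%) were called lower, against 6.91% of all shorter genes, and 1 (3.23%) higher, against 9.53%. Longer members include the redox and catalytic subunits Sdha, Sdhb, Uqcrfs1, Cyc1, Atp5a1 and Atp5b, of which Sdha, Sdhb and Cyc1 were not called. Also called lower among the longer members were Sdhc, Sdhd, Uqcrc2, Atp5f1 and Cox15. Role and length cannot be told apart here.

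**Figure D4:**
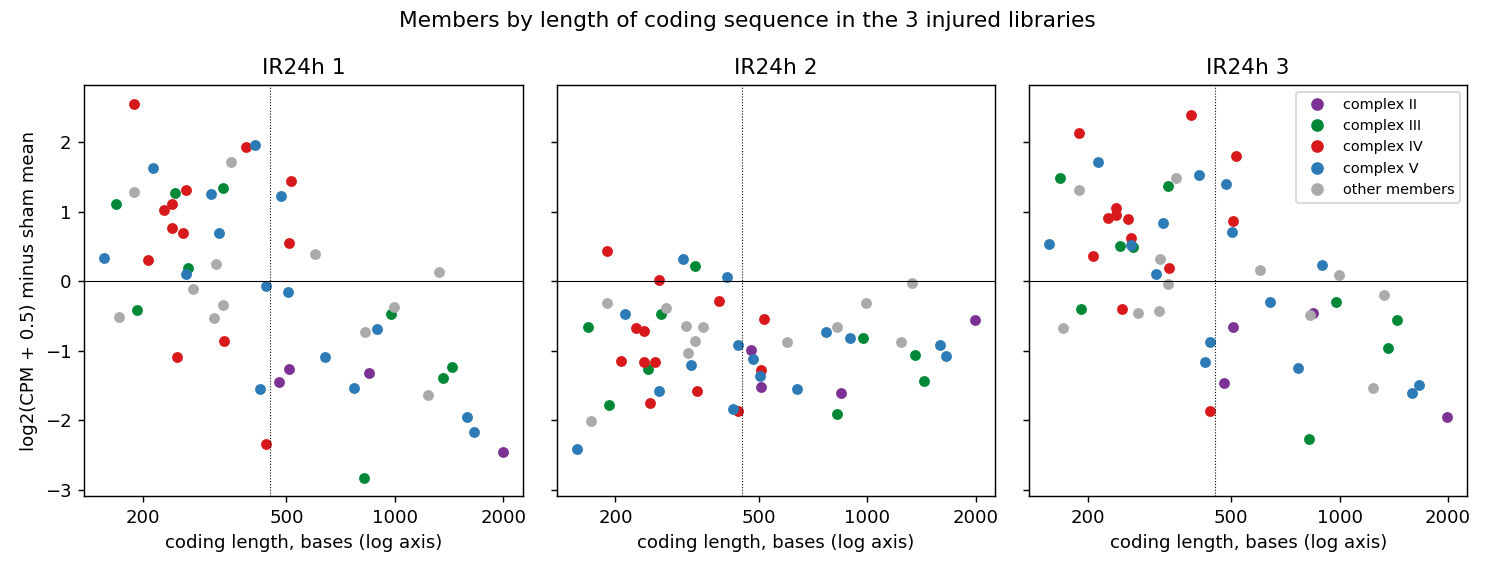
Difference of each tested member from the sham mean, as log2(CPM + 0.5), against its coding length on a log axis, in IR24h 1, 2 and 3, with the 450-base split dotted. Long genes lie mostly below 0 in all 3 libraries, while short genes lie mostly above 0 in IR24h 1 and 3 and mostly below 0 in IR24h 2.

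Complexes III, IV and V also need subunits made in the mitochondrion. All 6 of their mitochondrial genes were higher in every IR24h library than in every sham library, where 19.9% of all genes were. Their median log2 fold change was 2.61. By edgeR's test 3 were called higher, where 8.65% of all genes were: mt-Atp8 (4.58, adjusted p = 0.0047), mt-Atp6 (3.39, adjusted p = 0.0315) and mt-Co2 (2.62, adjusted p = 0.0436). Not called were mt-Cytb (adjusted p = 0.0619), mt-Co3 (0.055) and mt-Co1 (0.0898). The summed CPM of mitochondrial over nuclear subunit genes of complex III was 7.40, 7.90 and 7.04 in sham and 85.6, 25.8 and 40.8 in IR24h. For complex IV it was 20.4, 23.8 and 18.2 in sham and 169, 71.2 and 56.7 in IR24h. For complex V it was 1.24, 1.38 and 0.452 in sham and 44.2, 8.15 and 17.1 in IR24h, where the low sham 3 value goes with 2484 CPM of mt-Atp6 against 7184 and 7776 in the other sham libraries. The ratio was thus above sham in all 3 injured libraries for each complex, also in IR24h 2, the injured library with the fewest mitochondrial reads. The ratio shows unequal change and not which side changed.

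**Figure D5:**
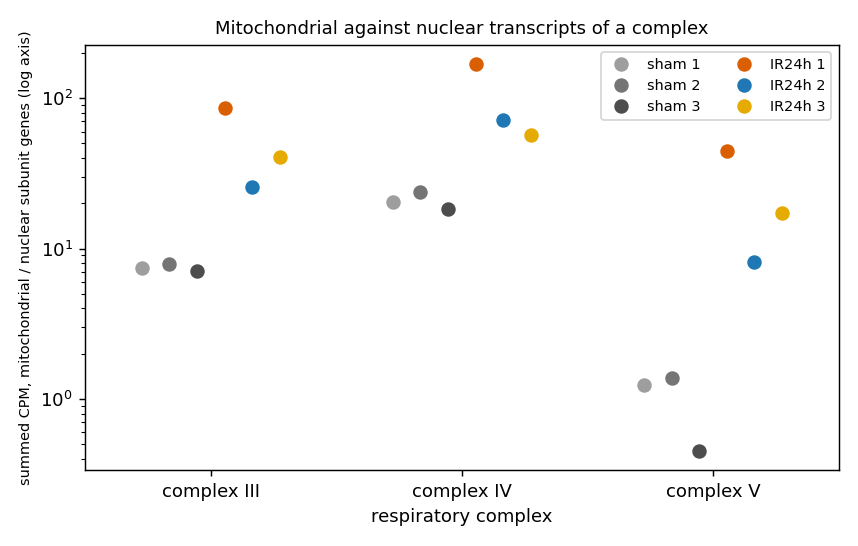
Summed CPM of mitochondrial genes divided by that of nuclear subunit genes of the same complex, in each library, on a log axis. All IR24h libraries lie above all sham libraries, IR24h 1 highest in each complex.

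Other genes that build or regulate these complexes were read against the same background. Of 34 assembly factors and related genes outside the rule, 1 was higher and 3 were lower, where 8.65% and 7.62% of all genes were. Their median log2 fold change was -0.04. The list also holds Ndufa4 and Ndufa4l2, which are not assembly factors (-0.85 and 1.56, neither called). Sdhaf4, which helps to assemble complex II, fell (-1.71, adjusted p = 0.0134), as did Atpaf1 (-1.26, adjusted p = 0.0356) and Tmem70 (-1.32, adjusted p = 0.0113), both needed for ATP synthase, while Pet100, a complex IV factor, rose (2.95, adjusted p = 0.0228). Of 17 regulators and mitochondrial maintenance genes only Tfam, which packages mitochondrial DNA and helps to transcribe it, was called: it stood at 46, 45.3 and 49.1 CPM in sham and 15.2, 28 and 20 CPM in IR24h (log2 fold change -1.15, SE 0.29, adjusted p = 0.0349). Ppargc1a, the coactivator of respiratory genes, stood at 54.9, 56.8 and 51.1 CPM in sham and 36.2, 47.4 and 33.1 CPM in IR24h, all below sham but not called (adjusted p = 0.208). Among 3 further genes of the membrane part of ATP synthase and its inhibitor, Usmg5 was called higher (1.48, adjusted p = 0.0381). Atpif1, the inhibitor, stood at 130, 121 and 111 CPM in sham and 171, 96.5 and 286 CPM in IR24h and was not called (0.62, SE 0.39).

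Uqcrfs1 and Cox5a were called in all 14 alternative fits. The other 9 called members were lost when sham 1, 2 or 3 was left out, each of which left 2 members called lower and 0 higher. Their fold changes kept their sign and moved by at most 0.15 on the log2 scale, and the calls over all genes also dropped, to 246 to 292 higher and 196 to 237 lower. Without IR24h 1, Sdhc, Atp5b, Atp5f1 and Cox15 were also lost, and 6 members were called lower. Without IR24h 3, Atp5a1, Atp5b, Atp5f1 and Cox15 were lost. Cox7c was called in 5 of the 14 and not without IR24h 1 or without IR24h 3. Scaling by library size alone shifted the median of all genes to -0.39 on the log2 scale and the higher share of all calls from 53.2% to 39.4%. Relative to that median, complex II was at -1.23 (-1.24 with the main scaling), complex III at -0.63 (-0.58), complex IV at 0.32 (0.48) and complex V at -0.36 (-0.13). The implied gene length differed between sham and IR24h for 6 of 54 members (Cyc1, Cox5b, Cox8a, Atp5o, Cox7a2l and Cox14), against 13.1% of 14239 genes, and for these a difference in counting and injury cannot be told apart.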

How the data were processed

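RNA-seq counts of 6 libraries of mouse renal cortex (3 sham, 3 IR24h, grouped by the labels' treatment) were used. Per the file headers, the authors deposited raw counts of reads per gene and FPKM values. FPKM values served only to recover the gene length that the authors had used. Per the submitters' processing notes, CASAVA 1.8 and TopHat2 2.0.6 were used, and the builds listed are GRCh38 and mm10. Counter, annotation and strand setting: not given in the sources used here. Of 22040 genes listed, 83 had no sham value and were left out, and 21957 identifiers matched GENCODE M21 (GRCm38), which gave coding lengths (APPRIS principal transcript) and 50-base stretches shared with other genes.

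All genes passing edgeR's expression filter (13609) were fitted together with edgeR 4.0.16 in R 4.3.3: TMM scaling, quasi-likelihood test, 2-sided, Benjamini-Hochberg adjustment over all genes, called under 0.05. CPM use TMM-scaled library sizes. SEs derive from the quasi-likelihood F statistic. The common biological coefficient of variation was 0.394. Depths of 12877237 to 17061844 counts limit the precision of the scarce members, and count limits cover counting error only. Counts of nuclear genes were 12455991 to 14639820 in sham libraries and 4008001, 11804440 and 6755476 in IR24h libraries, so the limit is tightest in IR24h 1 and 3. The script was tested on simulated data with less spread between libraries than these data and without their rise in mitochondrial share.

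The members, the gene lists and the tests were chosen with earlier results of these data known. Library values are given for the 8 called members lowest and up to 8 highest in fold change (only Cox7c was called higher), catalytic and redox subunits, isoform pairs and the most abundant member of each complex per kb of transcript, and other members by range. Uqcrc2, Cox5b, Cox7b2, Cox8c, Cox10, Atp5l, Ppargc1a and mt-Nd6 were added after their values were seen. Same-numbered libraries were checked for pairing and were treated as unpaired in the main fit. Alternatives were other scalings, DESeq2 1.42.0, limma-voom (limma 3.58.1), no count filter, nuclear genes only, a replicate block, subunits without shared stretches, and libraries left out. Promoters are RefSeq GRCm38.p6. Tables and plots used SciPy 1.17.1, NumPy 2.4.6, pandas 2.3.3 and matplotlib 3.10.9 in Python 3.11.15.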

Additional observations from a re-analysis of the deposited data

How the results depend on the processing

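Deviations of same-numbered libraries from their group means correlated at -0.11, 0.12 and 0.23, against -0.265 to 0.179 for libraries of unlike number. So few libraries cannot exclude pairing, and the main fit took them as unpaired. With the replicate block, 814 of all 13609 genes were called higher and 843 lower. Of the members, 0 were called higher and 6 lower (complex II 1, complex III 1, complex V 2 lower, complex IV 0 higher). DESeq2 called 2073 of all genes higher and 1695 lower, 4 members higher (complex III 1, complex IV 2, complex V 1) and all 4 complex II genes lower. With limma-voom, 1006 of all genes were called higher and 1197 lower, and 0 members higher (complex IV 0). Upper-quartile factors gave 1381 genes higher and 962 lower and left 1 complex II gene lower.

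Library size alone gave 398 genes higher and 611 lower, 0 members higher (complex IV 0) and 3 lower (complex II 0, complex III 1, complex V 1, assembly factors 0), with medians of -0.70 for members, -1.61 for complex II, -1.02 for complex III and -0.65 for assembly factors. IR24h 2 as the only injured library gave 2690 genes higher and 2749 lower, 0 members higher (complex IV 0) and 34 lower (complex II 4, III 6, IV 7, V 11, assembly factors 3), with medians of -1.01, -1.05 for complex III, -1.17 for IV, -1.12 for V and -0.67 for assembly factors. Subunits without shared stretches had 0 called higher and 7 lower of 32 in the main fit, where 8.65% and 7.62% of all genes were.

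Leaving out 1 library at a time gave 246 to 3297 genes higher and 196 to 3382 lower, both highest without IR24h 2. Members ranged from 0 to 17 higher and 2 to 14 lower, complex II from 0 to 4 lower, complex III from 0 to 3 higher and 1 to 3 lower, complex IV from 0 to 8 higher, complex V from 0 to 4 higher and 0 to 4 lower, and assembly factors from 0 to 2 higher and 0 to 2 lower.

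Log2 fold changes that changed sign were those of members not called. In IR24h 2 alone 16 of 53 members turned from above to below 0 (Uqcr11, Uqcrh, Uqcrq, Cox5b, Cox7b, Atp5h, Atp5j, Atp5k, Cox17, Cox20 and 6 others), with library size alone 8, and with upper-quartile factors 7 turned from below to above 0. Among the members given by library, in IR24h 2 alone they were -1.27 for Cox4i1, -1.45 for Cox4i2, -1.18 for Cox6b1, -0.0076 for Cox6b2, -0.70 for Cox6c, -1.44 for Cox7a1 and -0.30 for Cox5b. With library size alone these were -0.33 for Cox4i1, -0.26 for Cox6b1, -0.069 for Cox6c and -0.067 for Cox7a1. With 1 library left out, Cox4i1 ranged from -0.10 (without IR24h 3) to 0.70 and Cox8a from -0.27 (without IR24h 3) to 0.31 (without IR24h 2), and it was 0.089 with upper-quartile factors. The ratio of Cox6a2 to Cox6a1 differed by 0.14 on the log2 scale with 2 added to each count, against -0.056 with 0.5. For all of these the cause was not tested. A ratio of Cox8b to Cox8a was not computed, as Cox8b had 0 counts in 5 libraries.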

Other observations

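Complex I, the entry point for electrons from NADH, was measured in the same libraries. Of its 35 nuclear subunits tested, 1 was called higher and 5 lower, where 8.65% and 7.62% of all genes were. The subunits had a median log2 fold change of 0.08, against 0.05 for all genes tested. That value averages opposite directions, as for the members. The median differences from the sham mean were 0.34, -1.03 and 0.45 in IR24h 1, 2 and 3, against -0.04, -0.01 and -0.01 for all genes tested. The lowest were Ndufc1 (-2.18, adjusted p = 0.0315), Ndufc2 (-1.56, adjusted p = 0.0277) and Ndufs1, the large iron-sulfur subunit (-1.36, adjusted p = 0.0151), by edgeR's test. Ndufs3 stood at 2.63, 2.79 and 3.94 CPM in sham and 66.8, 41.9 and 83.8 CPM in IR24h, apart from every other subunit. It was scarce in sham, at 46, 58 and 73 counts, and the cause of its rise was not tested. Of the 7 mitochondrial genes of complex I, 5 were called higher, while mt-Nd6, the gene on the other strand of mitochondrial DNA, was lower (2017, 2289 and 2865 CPM in sham and 830, 382 and 581 CPM in IR24h).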
